A study of Homo sapiens with 9 samples.

Results

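The lysyl oxidase family was followed in EPC2, a line that the labels give as squamous epithelium of the normal human esophagus. Its 5 genes, LOX, LOXL1, LOXL2, LOXL3 and LOXL4, were taken by symbol from 64253 counted genes, and 4 of them had enough reads to be among the 16366 genes tested. LOX was picked because its level was lower with the FOXF1 plasmid than with the empty vector, and the other 4 genes are its relatives by name. RNA was sequenced from 3 libraries each of cells transfected with a FOXF1 plasmid, cells transfected with an empty vector, both by means of Lipofectamine 2000, and untreated cells. All 9 libraries are of this single line, the time from transfection to harvest is not given in the sources used here, and the share of cells that took up DNA is likewise not given.

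Lysyl oxidases are secreted copper enzymes that oxidise lysine side chains of collagen and elastin, after which these proteins cross-link into stiff or elastic fibres. LOX and LOXL1 are made with a propeptide that proteases of the BMP1 family can remove outside the cell, whereas LOXL2, LOXL3 and LOXL4 carry scavenger receptor domains ahead of the catalytic part. In the gut wall, cross-linked matrix lies mainly beneath the epithelium, and LOX and LOXL2 are known to be induced through hypoxia-inducible factors.

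Promoter sequences of LOX, LOXL1, LOXL3 and LOXL4 were taken from the RefSeq table (GRCh38.p14), and LOXL2 is not reported here. Those of LOX, whose level differed most between groups, and LOXL1, whose level differed least between empty vector and untreated cells, are shown from 250 bases before the RefSeq start site up to it, in the gene's own direction. Capitals mark ACGTG or its reverse complement CACGT, a form of the core of the hypoxia response element. Other forms of this core were not searched.
LOX, chr5:122078260-122078509, minus strand: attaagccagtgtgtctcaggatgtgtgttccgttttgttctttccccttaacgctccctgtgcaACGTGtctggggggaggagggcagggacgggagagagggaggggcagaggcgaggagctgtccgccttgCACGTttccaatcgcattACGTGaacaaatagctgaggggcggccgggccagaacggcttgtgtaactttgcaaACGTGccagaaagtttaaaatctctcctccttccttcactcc
LOXL1, chr15:73926212-73926461, plus strand: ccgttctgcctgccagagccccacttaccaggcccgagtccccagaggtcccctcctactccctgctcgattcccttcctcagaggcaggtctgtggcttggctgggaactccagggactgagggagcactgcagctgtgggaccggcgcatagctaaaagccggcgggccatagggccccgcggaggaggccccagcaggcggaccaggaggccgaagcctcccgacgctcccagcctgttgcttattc

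The LOX window holds this form of the hypoxia core 4 times, at -185, -116, -98 and -42 bases from the start site, with no match overlapping another. Of 34943 RefSeq promoter windows of 300 bases (250 before and 50 from the start site on), 0.841% hold at least 4 matches and 21.4% at least 1, where a match on each strand of the palindrome CACGTG counts as 2 overlapping matches. The other 2 LOX windows, which lie wholly inside the gene, overlap each other and hold the same single match, and those of LOXL1, LOXL3 and LOXL4 hold 0. By the gene spans given below, the LOXL1 and LOXL3 windows also lie inside their genes. The first LOX window and the LOXL4 window reach into theirs. The forkhead core TAAACA (or TGTTTA), found in 12.3% of all windows, has no match in any of these 7 windows. These are descriptions of letters, and binding was not measured.

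The genes lie on 5 chromosomes (GRCh38, GENCODE annotation). LOX (ENSG00000113083) spans chr5:122063195-122078360 on the minus strand, LOXL1 (ENSG00000129038) chr15:73925989-73952137 on the plus strand, LOXL2 (ENSG00000134013) chr8:23297189-23425328 on the minus strand, LOXL3 (ENSG00000115318) chr2:74532414-74555690 on the minus strand and LOXL4 (ENSG00000138131) chr10:98247690-98268250 on the minus strand.

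Total counts ran from 34390666 to 39973289 per library, so that 3 counts, taken as the limit for a gene without reads, correspond to 0.0751 to 0.0872 CPM, the field's depth-scaled read count. FOXF1, the gene the plasmid carries, had 367, 184 and 141 reads in the FOXF1 plasmid libraries, against 0, 0 and 6 in the empty vector libraries and 1, 0 and 0 in the untreated ones. Of 8 squamous markers, TP63 had 0 reads in all 9 libraries and KRT5, KRT14, KRT13, KRT4 and DSG3 stayed below 1 CPM in each. The defining markers of the labelled cell type were thus absent or nearly so, while KRT6A averaged 1.2 CPM and SFN 106 CPM. The summed squamous markers ran from 107.1 to 111.6 CPM with the FOXF1 plasmid, from 97.41 to 116.5 with the empty vector and from 103.2 to 112.7 CPM in untreated cells. Of 10 fibroblast markers, COL1A2 and LUM had 0 reads, and COL3A1, DCN, PDGFRA and FAP stayed below 1 CPM. THY1, FBLN1, PDGFRB and PDPN averaged 874, 462, 48.8 and 25.5 CPM. The summed fibroblast markers ran from 1423 to 1517 CPM with the FOXF1 plasmid, from 1405 to 1451 with the empty vector and from 1290 to 1406 CPM in untreated cells. All these marker levels are scaled by total counts alone. With TMM factors THY1 averaged 887.7 (FOXF1 plasmid), 787.5 (empty vector) and 956.1 CPM (untreated). In the same order FBLN1 averaged 474.1, 455.7 and 451 CPM, PDGFRB 52.63, 53.46 and 38.48, PDPN 24.6, 26.85 and 24.6, and SFN 106.6, 97.28 and 115. The part of the fibroblast markers in the results was not tested. Mitochondrial genes took 13.7% to 14.7% of counts with the FOXF1 plasmid, 10.3% to 11.7% with the empty vector and 18.6% to 22.4% in untreated cells, and the part of this share in the results was not tested. All 5 endothelial and 5 of 6 leukocyte markers stayed below 1 CPM in every library.

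Per kilobase of exon, the scale on which genes can be compared, the order LOXL2, LOXL1, LOX, LOXL3, LOXL4 was the same in all 9 libraries. LOXL2, which is known to act on collagen IV of basement membranes, had 77.9 ± 6.4 CPM per kb with the FOXF1 plasmid, 77.9 ± 3.0 with the empty vector and 58.2 ± 2.01 in untreated cells (SD, n = 3 each, here and below). LOXL1, known for its role in elastic fibre upkeep in mice, had 40.2 ± 1.99, 35.6 ± 0.606 and 34.6 ± 2.4 CPM per kb in the same groups. LOX, the founding enzyme of the family, had 6.98 ± 0.16, 9.34 ± 1.93 and 4.01 ± 0.225 CPM per kb, and LOXL3 had 3.73 ± 0.217, 3.67 ± 0.241 and 2.98 ± 0.197. The steps LOXL2 over LOXL1 and LOX over LOXL3 were the narrow ones in all libraries but empty vector replicate 3. There LOXL1 over LOX, at 3.09, was narrower than LOX over LOXL3, at 3.37. LOXL2 over LOXL1 was a ratio of 1.85 to 1.98 with the FOXF1 plasmid, 2.13 to 2.25 with the empty vector and 1.61 to 1.74 in untreated cells. LOX over LOXL3 was 1.77 to 2.01, 2.02 to 3.37 and 1.18 to 1.5 in the same groups. On this scale LOXL2 made up 60.4% ± 1.09 of the family with the FOXF1 plasmid, 61.6% ± 1.43 with the empty vector and 58.3% ± 0.639 in untreated cells. LOX made up 5.42% ± 0.235, 7.39% ± 1.55 and 4.03% ± 0.38.

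**Figure D1:**
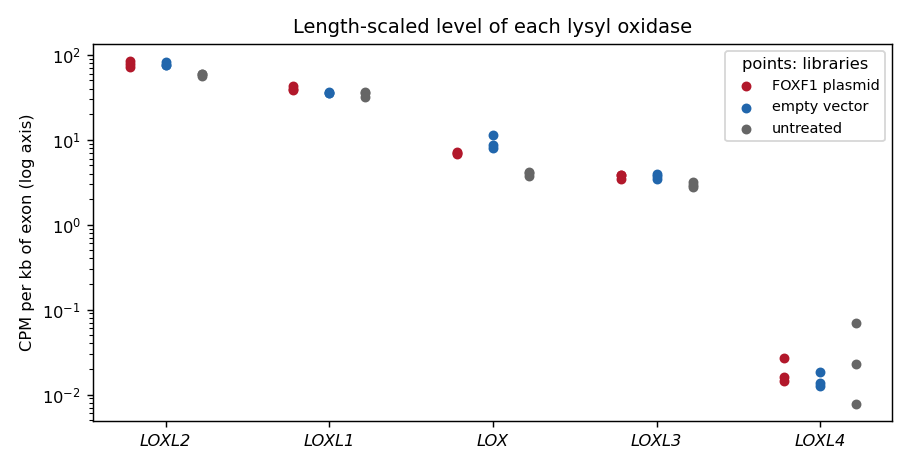
Level of each lysyl oxidase gene per library (points) in CPM per kb of exon on a log axis, for FOXF1 plasmid, empty vector and untreated cells from left to right. The order LOXL2, LOXL1, LOX, LOXL3, LOXL4 holds in all 9 libraries, and LOXL4 lies near the detection limit.

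LOXL4 was at the edge of detection in every group. It had 4, 2 and 2 reads with the FOXF1 plasmid, 2, 3 and 2 with the empty vector and 1, 3 and 9 in untreated cells. The groups overlapped, and the sums of 8, 7 and 13 reads carry exact Poisson 95% intervals of 3.45 to 15.8, 2.81 to 14.4 and 6.92 to 22.2, which cover counting error only. A difference in LOXL4 between groups was not detectable at this depth, and the gene was not among those tested.

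LOX was picked from the contrast of both transfected groups, in which the vector is common and FOXF1 is not. LOX had 38.83, 39.5 and 37.74 CPM in the FOXF1 plasmid libraries, against 43.78, 47.63 and 63.95 CPM in the empty vector libraries. The groups did not overlap, and the empty vector group was widely spread because its replicate 3 lay well above the other two. The log2 fold change of LOX was -0.42 ± 0.097 (SE), given as a description with no test, and it was -0.24 without empty vector replicate 3. Of all 16366 genes tested, 1145 had a lower fold change. In bulk libraries fewer cells that express a gene and less RNA per cell cannot be told apart. Groups that did not overlap, with the FOXF1 plasmid lower, were found for 5.68% of all genes.

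LOXL1 stood on the other side, with 143.8, 154.4 and 140.6 CPM in the FOXF1 plasmid libraries, against 131.6, 127.2 and 129.6 CPM in the empty vector libraries. These groups did not overlap either, as was the case, with the FOXF1 plasmid higher, for 7.34% of all genes. Its log2 fold change was 0.18 ± 0.065 and became 0.08 with libraries scaled by total counts alone.

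LOXL2 had 445.1, 480.8 and 407.7 CPM in the FOXF1 plasmid libraries, against 464.2, 435.1 and 434.0 CPM in the empty vector libraries, which overlapped. Its log2 fold change of 0.000104 carried a 95% interval from -0.136 to 0.136. LOXL3, which in mice is needed for palate and spine development, had 15.2, 16.91 and 16.77 CPM against 17.05, 16.08 and 14.94 CPM, with a log2 fold change of 0.02 and an interval from -0.189 to 0.237. The signs of LOXL2 and LOXL3 depended on the scaling, at -0.10 and -0.07 with total counts alone. Because the comparison served to choose LOX, no p is given for any family member in it. Over all genes, the edgeR quasi-likelihood test called 0.0550% at an adjusted p below 0.05, all of them higher with the FOXF1 plasmid.

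**Figure D2:**
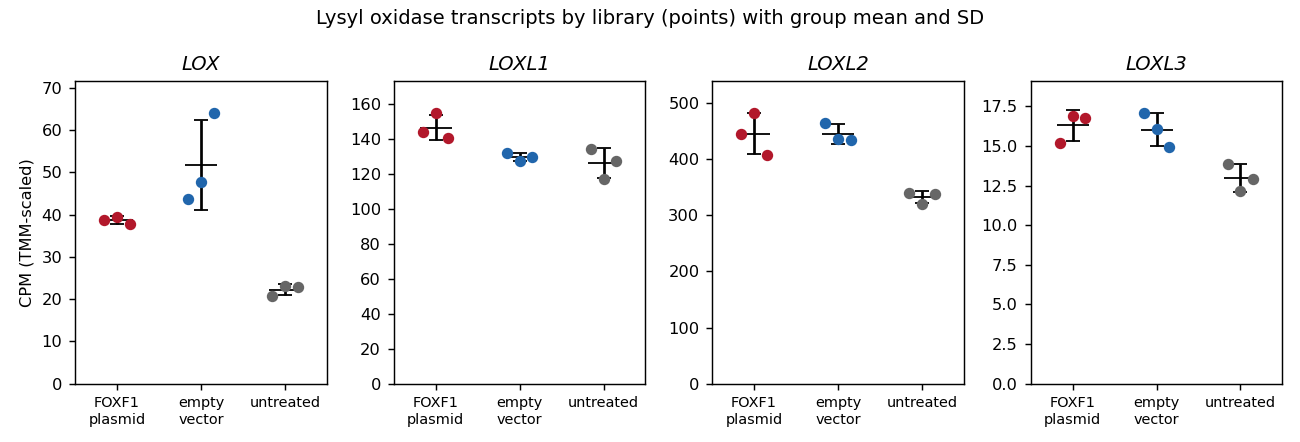
TMM-scaled CPM of LOX, LOXL1, LOXL2 and LOXL3 in each library (points), with the group mean (bar) and SD (whiskers), n = 3 each, for FOXF1 plasmid, empty vector and untreated cells from left to right; each axis starts at 0. LOX lies at 37.74 to 39.5 CPM with the FOXF1 plasmid, between the empty vector at 43.78 to 63.95 and untreated cells at 20.83 to 23.14.

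Empty vector against untreated cells compares cells given the reagent and a vector with cells given neither. LOX had 43.78, 47.63 and 63.95 CPM in the empty vector libraries, against 20.83, 23.14 and 22.79 CPM in the untreated libraries. Every empty vector library was above every untreated one, and the averages were 51.79 ± 10.7 and 22.26 ± 1.25 CPM. The log2 fold change was 1.22 ± 0.10, or 2.33-fold, and only 187 of the 16366 genes had a higher one. Without empty vector replicate 3 it was 1.04. LOX was picked with the help of the empty vector libraries, so this value too is a description with no test.

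LOXL2 rose in this comparison. It had 464.2, 435.1 and 434.0 CPM in the empty vector libraries, against 339.5, 318.9 and 337.8 CPM in the untreated libraries. No empty vector library came near the untreated range, and the log2 fold change was 0.42 ± 0.067 (adjusted p = 3.12e-05, edgeR quasi-likelihood test with Benjamini-Hochberg adjustment over all genes, here and below). ENTPD4, on the same strand, shares 2.1% of the exon bases of LOXL2. LOXL2 was called in all 17 alternative analyses, with log2 fold changes from 0.383 to 0.665.

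LOXL3 also rose, by a smaller margin. It had 17.05, 16.08 and 14.94 CPM in the empty vector libraries, against 13.87, 12.15 and 12.93 CPM in the untreated libraries. The groups did not overlap, and the log2 fold change was 0.30 ± 0.11 (edgeR adjusted p = 0.0404). The call was lost in 9 of 17 alternatives: without untreated replicate 1, 2 or 3 (edgeR adjusted p = 0.0538, 0.168 and 0.0993), without empty vector replicate 1 or 2 (0.102 and 0.112), without FOXF1 plasmid replicate 2 (0.0591), with RLE factors (0.0689), with no filter (0.0721) and in a fit of these groups alone (0.0567). HTRA2, on the opposite strand, shares 14.3% of the exon bases of LOXL3 and DOK1 shares 4.95%. Since the strand setting of the counting is not given, some reads may be assigned to either gene. HTRA2 had a log2 fold change of 0.00263 (edgeR adjusted p = 0.986) and DOK1 one of -0.17 (edgeR adjusted p = 0.133).

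LOXL1 did not pass the test. It had 131.6, 127.2 and 129.6 CPM in the empty vector libraries, against 134.0, 116.7 and 127.2 CPM in the untreated libraries. The groups overlapped, and the log2 fold change of 0.04 had a 95% interval from -0.0938 to 0.173 (edgeR adjusted p = 0.73). LOXL2 and LOXL3 were thus 2 called higher of the 3 LOX relatives tested, beside 10.2% of all genes called higher and 19.6% called in either direction. Groups without overlap were found for 17.4% of all genes with the empty vector higher and 15.3% with it lower. Scaling by library totals without TMM factors shifted the median over all genes to 0.289 from its 0.0436, and LOXL1, at 0.29, was then called too (edgeR adjusted p = 0.00108).

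The FOXF1 plasmid against untreated cells joins transfection and FOXF1, and it shares its libraries with the comparisons above. LOX, at 37.74 to 39.5 against 20.83 to 23.14 CPM, had a log2 fold change of 0.80 ± 0.10, or 1.74-fold, again with no test. All FOXF1 plasmid libraries lay above all untreated ones for LOX, LOXL1, LOXL2 and LOXL3, as they did for 14.1% of all genes, with 12.6% on the lower side.

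LOXL2 rose, with 445.1, 480.8 and 407.7 CPM in the FOXF1 plasmid libraries against 339.5, 318.9 and 337.8 CPM in the untreated libraries (log2 fold change 0.42 ± 0.067, edgeR adjusted p = 7.98e-05). This call, too, was made in all 17 alternatives. LOXL1 rose, with 143.8, 154.4 and 140.6 CPM against 134.0, 116.7 and 127.2 CPM (log2 fold change 0.22 ± 0.065, edgeR adjusted p = 0.0354). The LOXL1 call was lost without untreated replicate 2 or 3 (edgeR adjusted p = 0.264 and 0.0768), without FOXF1 plasmid replicate 1 or 2 (0.0721 and 0.221), with RLE factors (0.069) and with no filter (0.0519).

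LOXL3, with 15.2, 16.91 and 16.77 CPM in the FOXF1 plasmid libraries against 13.87, 12.15 and 12.93 CPM in the untreated libraries, had a log2 fold change of 0.33 ± 0.11 and did not pass (edgeR adjusted p = 0.0505). It was called in 6 of 17 alternatives, DESeq2 (adjusted p = 0.0317) among them. Of the 3 LOX relatives tested, 2 were called higher, beside 4.63% of all genes called higher and 8.52% called in either direction. The summed family was at 129 ± 8.51 CPM per kb with the FOXF1 plasmid, 126 ± 2.92 with the empty vector and 99.8 ± 4.36 in untreated cells.

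**Figure D3:**
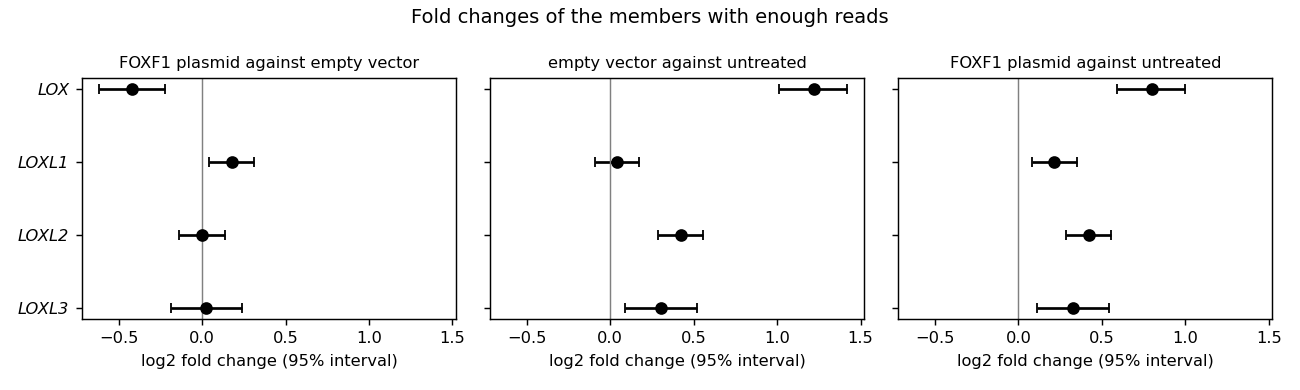
Log2 fold changes (points) with 95% intervals (bars) of LOX, LOXL1, LOXL2 and LOXL3 in 3 panels, where a positive value means higher in the first-named group. LOX was picked from the FOXF1 plasmid and empty vector libraries, so its intervals are a description; LOXL2 lies at 0.42 in both comparisons with untreated cells.

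The genes that lysyl oxidases work with were taken as 8 lists of 87 genes in all, of which 77 were tested. Between FOXF1 plasmid and empty vector 0 of the 77 passed, beside 0.0550% of all genes. Over all genes the same edgeR test left 833 higher and 710 lower at an unadjusted p below 0.05. DESeq2, whose filter left an adjusted p for 34 of the 77 and for 2405 of all genes, called 1 list gene beside 4.49% of those 2405, namely TGFB1, the ligand that is known to induce LOX (log2 fold change 0.28, adjusted p = 0.0224), and without empty vector replicate 1 the edgeR test called 2 as lower, both named after their values were seen: the lysyl hydroxylase PLOD2 and the prolyl hydroxylase subunit P4HA1 (-0.34 and -0.36, adjusted p = 0.0271 and 0.0482), beside 1.03% of all genes called lower in that setting. With edgeR and all libraries TGFB1 had a log2 fold change of 0.27 (edgeR adjusted p = 0.169). Set against untreated cells, the empty vector group had 30 passing as higher and 7 as lower, beside 10.2% and 9.37% of all genes. The FOXF1 plasmid group had 26 and 6, beside 4.63% and 3.89%. With total counts alone the splits became 51 and 2, and 41 and 2. That scaling also shifted the median over all genes, to 0.289 from 0.0436 and to 0.164 from 0.0164. The shares of all genes called under it are not given here.

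Hypoxia-inducible factor targets other than LOX rose with transfection, 10 of 12 in each transfected group against untreated cells, and none passed as lower. Over all genes, 10.2% were called higher and 9.37% lower in the empty vector group. For the FOXF1 plasmid group these shares were 4.63% and 3.89%. Like the other lists, this one was chosen with earlier results of these data known. NDRG1, a stress-induced gene, averaged 426.7 ± 17.0 CPM with the empty vector and 120.0 ± 4.91 CPM in untreated cells (log2 fold change 1.83, edgeR adjusted p = 4.29e-18). ANGPTL4 (a lipase inhibitor), ADM (the vasodilator adrenomedullin) and PDK1 (a pyruvate dehydrogenase kinase) had log2 fold changes of 1.79, 1.21 and 1.15. LDHA and ANKRD37 did not pass. The list's median against untreated cells was 0.81 in the empty vector group and 0.71 in the FOXF1 plasmid group, beside 0.0436 and 0.0164 over all genes.

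Between both transfected groups the 12 targets ran from -0.24 (PDK1) to 0.11 (EGLN3, a prolyl hydroxylase of the hypoxia pathway), with a median of -0.07, beside -0.42 for LOX. LOX was picked as lower in this contrast and the targets were not, so its larger size is in part set by the choice. Without empty vector replicate 3 the LOX value was -0.24. The mean log2 CPM over the 12 targets was 5.96, 5.98 and 5.86 in the FOXF1 plasmid libraries, 6, 5.99 and 5.97 in the empty vector libraries and 5.07, 5.09 and 5.12 in untreated libraries. Empty vector replicate 3, the library with the highest LOX, was close to the other empty vector libraries on this measure. Among these libraries BNIP3, SLC2A1, PDK1 and LDHA were highest in replicate 3. CA9, NDRG1, ANKRD37 and ANGPTL4 were lowest in it, and the remaining targets lay between. How LOX relates to these genes was not tested. HIF1A, the oxygen-regulated subunit, fell in the FOXF1 plasmid group against untreated cells (-0.37, edgeR adjusted p = 0.00422) and had -0.23 with the empty vector (edgeR adjusted p = 0.0517). EPAS1, its relative HIF-2alpha, fell in both, by 0.22 and 0.20 on the log2 scale (edgeR adjusted p = 0.0202 and 0.0194).

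**Figure D4:**
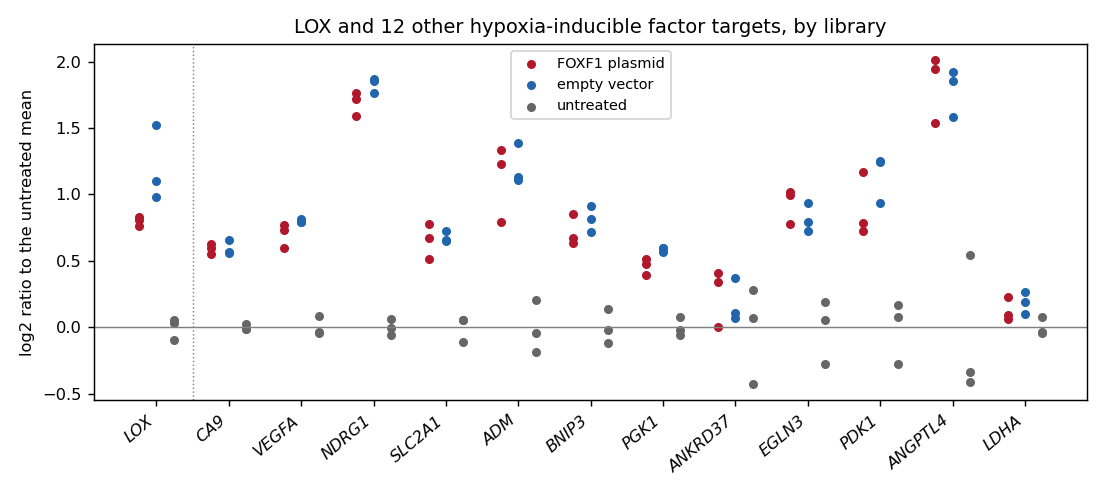
Log2 ratio of each library to the mean of the untreated libraries for LOX (left of the dotted line) and 12 other hypoxia-inducible factor targets, with FOXF1 plasmid, empty vector and untreated libraries from left to right within each gene. For LOX, VEGFA, NDRG1 and PGK1 all FOXF1 plasmid libraries lie below all empty vector libraries, as for 5.68% of all genes. LOX was picked from this contrast.

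Of 9 tested collagen chains 4 rose with the empty vector against untreated cells: COL5A3 (log2 fold change 0.50), COL4A2 (0.49), COL5A1 (0.36) and COL1A1 (0.30), with edgeR adjusted p from 1.63e-05 to 0.00431. The same 4 rose with the FOXF1 plasmid against untreated cells, COL1A1 at 1603 ± 124 against 1210 ± 114 CPM (log2 fold change 0.41, edgeR adjusted p = 0.000456). None fell. The fibrillar chains COL1A2 and COL3A1 had 0 reads and 0 to 6 reads per library, so the partners of COL1A1 that LOX is known to cross-link were at or near 0. The list's median was 0.17 in both comparisons, beside 0.0436 (empty vector) and 0.0164 (FOXF1 plasmid) over all genes.

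The enzymes that hydroxylate and fold collagen rose in 9 of 16 cases with the empty vector and in 6 of 16 with the FOXF1 plasmid, both against untreated cells, and none fell. The shares of all genes called higher were 10.2% and 4.63%. P4HA1, a catalytic subunit of prolyl hydroxylase, averaged 34.38 ± 4.1 CPM with the empty vector and 16.42 ± 1.5 CPM in untreated cells (log2 fold change 1.07, edgeR adjusted p = 7.13e-09). P4HB, the disulfide isomerase that partners it, P4HA2 and the collagen chaperone SERPINH1 had 0.53, 0.49 and 0.33 (edgeR adjusted p of 0.000746 or smaller). PLOD2, the hydroxylase that prepares collagen telopeptide lysines for the oxidases, passed narrowly with the empty vector and was named after its value was seen (0.27, edgeR adjusted p = 0.0488). The medians were 0.25 in the empty vector group and 0.16 in the FOXF1 plasmid group, beside 0.0436 and 0.0164 over all genes.

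Of 13 elastic fibre genes, 3 were called higher and 2 lower with the empty vector against untreated cells, beside 10.2% and 9.37% of all genes. With the FOXF1 plasmid 4 were called higher and 2 lower, beside 4.63% and 3.89%. EMILIN1 (1.55, at 0.7972 ± 0.24 CPM with the empty vector) and FBLN2 (0.50) rose, and EFEMP1 and the microfibril gene FBN2 fell by 0.45 and 0.35 on the log2 scale. ELN, elastin itself, did not have enough reads to be tested. Of 5 tested genes that process or bind the proenzymes, 1 was called higher and 1 lower with the empty vector, beside the same 10.2% and 9.37%. FN1 (fibronectin) rose by 0.27 and PCOLCE, a procollagen protease enhancer, fell by 0.33 on the log2 scale. None passed with the FOXF1 plasmid. BMP1, the protease that cleaves the LOX propeptide, had log2 fold changes of 0.06 and 0.16 in the empty vector and FOXF1 plasmid groups against untreated cells (edgeR adjusted p = 0.634 and 0.208).

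Of 8 copper supply genes, 1 was called higher and 2 lower in both comparisons with untreated cells, beside the same shares of all genes (10.2% and 9.37% for the empty vector group, 4.63% and 3.89% for the FOXF1 plasmid group). SLC31A1, the copper importer, rose by 0.38 in the empty vector group and 0.28 in the FOXF1 plasmid group, while the copper chaperone ATOX1 fell by 0.34 and 0.28 and COMMD1 by 0.56 and 0.45 on the log2 scale. ATP7A, the pump that loads copper onto lysyl oxidases, had 0.50 and 0.74 (edgeR adjusted p = 0.168 and 0.0615). Of 12 upstream regulators, 2 were called higher and 2 lower with the empty vector, beside 10.2% and 9.37% of all genes. SNAI2 (0.55) and SMAD4 (0.48) rose, TGFB1 fell by 0.32 and EPAS1 as given above. With the FOXF1 plasmid SNAI2 rose (0.40), and HIF1A and EPAS1 fell, beside 4.63% of all genes called higher and 3.89% lower. SNAI1, a transcription factor that LOXL2 is known to bind, had 0.12 in both (edgeR adjusted p = 0.561 and 0.634).

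**Figure D5:**
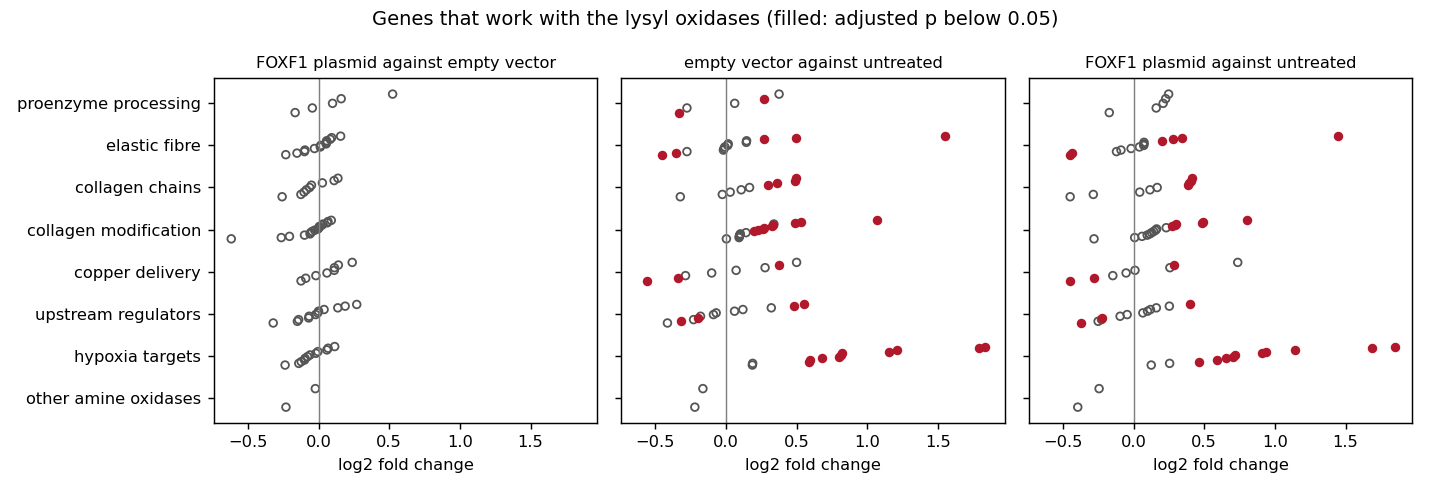
Log2 fold changes of the 77 tested genes in 8 lists, in the 3 comparisons; filled points passed at an adjusted p below 0.05 (edgeR), open points did not. No point is filled in the left panel, which sets FOXF1 plasmid against empty vector. In both comparisons with untreated cells 10 of 12 hypoxia targets are filled on the higher side. Over all genes 10.2% (empty vector) and 4.63% (FOXF1 plasmid) were called higher.

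Across the 9 libraries, the genes whose log2 CPM was most like that of each member were named by Pearson's r among 10785 other genes, as a description. The libraries fall into the 3 groups, so r reflects mainly the group levels. For LOX they were RHPN2 (0.984), AK4 (0.981) and GOLGA8A (0.979), the last of a multicopy family with uncertain reads. AK4, a mitochondrial adenylate kinase, averaged 41.13 ± 1.59 CPM with the FOXF1 plasmid, 45.31 ± 4.24 with the empty vector and 33.6 ± 1.53 in untreated cells. For LOXL2 they were the amino acid transporter SLC7A5 (0.993), SLC22A31 (0.988) and the metalloreductase STEAP3 (0.984). SLC7A5 averaged 684.6 ± 52.2, 675.1 ± 16.3 and 484.8 ± 29.1 CPM in the same groups. For LOXL3 they were PYCR1 (0.97), a proline synthesis enzyme, DDR1 (0.97), a collagen receptor, and CBLN1 (0.967), and for LOXL1 NYNRIN (0.957) and HYAL3 (0.952).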

How the data were processed

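Stranded mRNA libraries were made from 9 EPC2 samples, per the labels' protocols. The table deposited by the authors holds unnormalised counts for each Ensembl identifier. STAR 2.5.2b, HTSeq, bcl2fastq and the build GRCh38 are named in the submitters' processing notes. The sources used here give no strand setting, annotation release or trimming. Groups came from sample titles. The submitters call the samples biological triplicates. Any p reflects only how far these libraries spread.

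Counts were fitted with edgeR 4.0.16 (R 4.3.3): filterByExpr with a minimum count of 10, TMM factors, a mean per group over all 9 libraries, quasi-likelihood F tests and Benjamini-Hochberg adjustment, with calls at an adjusted p below 0.05. CPM use TMM-scaled totals, except the cell type marker levels and the limit for a gene without reads, which use total counts alone. The SE is the absolute log2 fold change over the square root of F. Lengths are exon unions of GENCODE 29, which holds 56591 of the 64253 identifiers. Intervals and limits cover counting error only where reads are counted directly. P3H1, P3H3 and P3H4 were matched through older symbols.

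Members and lists were chosen with earlier results of these data known. All members were named, with up to 4 called genes of the largest fold change per list and comparison, further list genes as values, and the 3 genes most correlated with each member, of which 1 is not reported here (mean log2 CPM of at least 1, prior count 2, no clone-style names or pseudogenes). Alternatives were DESeq2 1.42.0, limma-voom (limma 3.58.1), RLE factors, total counts alone, no filter, at least 1 CPM in at least 3 libraries, only the compared groups, a replicate block and leaving out each library.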

Additional observations from a re-analysis of the deposited data

How the results depend on the processing

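LOX was picked as lower with the FOXF1 plasmid than with the empty vector, so that direction was set by the choice. Each comparison with untreated cells uses a group from that choice. As a description, LOX kept its direction in all 17 alternatives of each comparison. Its log2 fold change with a library left out ran from -0.53 to -0.24 between FOXF1 plasmid and empty vector and from 1.04 to 1.33 for the empty vector against untreated cells, the lowest size in both without empty vector replicate 3. It was 1.46 for the empty vector against untreated cells with total counts alone. The number of LOX relatives called higher, 2 in both comparisons with untreated cells, was 1 with RLE factors and with no filter in both, and 1 in the fit of only the compared groups for the empty vector. It was 3 in both with total counts alone, and 3 for the FOXF1 plasmid with DESeq2, with the 1 CPM filter and in the fit of only the compared groups. Leaving out libraries gave 1 to 2 for the empty vector and 1 to 3 for the FOXF1 plasmid. LOXL1 ran from -0.0216 (without untreated replicate 2, edgeR adjusted p = 0.891) to 0.0756 (without untreated replicate 1) for the empty vector against untreated cells with a library left out, and to 0.286 with total counts alone (edgeR adjusted p = 0.00108). Over all its alternatives the adjusted p ran from 0.00108 to 0.948.

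Pathway genes called between FOXF1 plasmid and empty vector, 0 in each direction, were 1 higher with no filter and with DESeq2 (TGFB1 in both), and from 0 to 2 lower with a library left out. Pathway calls against untreated cells were 51 higher and 2 lower for the empty vector and 41 and 2 for the FOXF1 plasmid with total counts alone. The medians over all genes were then 0.289 and 0.164. Lower calls for the FOXF1 plasmid ran from 3 to 6 with a library left out, with 3 without FOXF1 plasmid replicate 1. With the replicate block the log2 fold change of LOX was -0.41, 1.21 and 0.80 in the order FOXF1 plasmid against empty vector, empty vector against untreated and FOXF1 plasmid against untreated, and the pathway calls against untreated cells were 30 higher and 8 lower, and 27 and 6. Same-numbered libraries correlated at -0.0904 to 0.0837 in their deviations from the group means, so the numbers were not taken as pairs. The causes were not tested. LOXL4 is limited by depth.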

Other observations

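LOXL1-AS1 (ENSG00000261801), a noncoding gene on the strand opposite LOXL1, shares 9.21% of the exon bases of LOXL1 and was read in every library. It had 16.55, 16.15 and 15.38 CPM in the FOXF1 plasmid libraries, 16.64, 14.97 and 15.13 CPM in the empty vector libraries and 17.62, 14.22 and 16.53 CPM in the untreated libraries. The groups overlapped, and its log2 fold changes were 0.04 between FOXF1 plasmid and empty vector, -0.05 between empty vector and untreated cells and -0.01 between FOXF1 plasmid and untreated cells, with edgeR adjusted p of 0.943, 0.799 and 0.978. Without a stated strand setting its reads and those of LOXL1 cannot be told apart where they overlap.

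Copper amine oxidases outside the family were scarce. AOC1 did not have enough reads to be tested. AOC2 had log2 fold changes of -0.23, -0.16 and -0.40 in the same comparisons (edgeR adjusted p = 0.75, 0.599 and 0.219). AOC3, also called VAP-1, had -0.02, -0.22 and -0.24 in the same order (edgeR adjusted p = 0.984, 0.56 and 0.595).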
